A study of Homo sapiens with 19 samples.

Results

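The 18S rRNA downstream of position 670 holds the central and 3′ parts of the small ribosomal subunit RNA. It was taken as all counted 18S positions above 670, and the listed methylation sites among them. These were 1166 of the 7000 rRNA positions counted by RiboMethSeq, with the counted part of 18S ending at position 1836, and 24 of the 120 sites with a deposited methylation score. The sites run from 18S-Gm683 to 18S-Um1804; the letter before the m is the base and the number the position in 18S. By their place in the molecule 6 belong to the central domain, which forms the platform and body side of the subunit, 15 to the 3′ major domain, which forms the head, and 3 to the 3′ minor domain with helix 44, which carries part of the decoding centre.

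The material was Kasumi-1, a cell line derived from acute myeloid leukaemia. FBL knockdown (KD) cells carrying the mutants titled FBLTri or FBLQua, wild-type FBL, an empty vector or no vector were set against control KD cells without re-expression or with an empty vector. These 7 groups had 2 libraries each, and doxycycline at 100 ng/ml is given for all of them, controls included. A second series, labelled with no treatment, held SNORD127 knockout (KO) clones C1 and C34, clone C1 with SNORD127 put back or with an empty vector, and 1 control clone, 1 library each. The names of the count columns call the libraries titled FBLTri Dual and those titled FBLQua Tri, and give the control clone a KO-type name, so these assignments rest on the titles. Nothing states that replicates came from separate cultures, and p-values then measure the spread between these libraries.

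The enzyme encoded by FBL, fibrillarin, works inside box C/D ribonucleoproteins of the nucleolus and places a methyl group on the 2′ oxygen of a ribose. A guide RNA of the SNORD class pairs with the rRNA and thereby selects the nucleotide, and most guides are cut out of introns of host genes. A 2′-O-methyl group protects the next bond from alkali, so a methylated nucleotide leaves a gap in the fragment ends. Score C expresses that gap as 1 minus the end count at the site over the weighted mean count of 6 positions on each side. It is near 1 where nearly all molecules are methylated and is set to 0 where the site has more ends than its flanks.

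Of the 24 sites 17 have a named guide and 7 have a predicted, unknown or no guide in the deposited annotation. The hosts that the RefSeq gene table places around these guides include the snoRNA host SNHG1 for 18S-Am1383, 18S-Cm1391 and 18S-Gm1490. They also include the nucleolin gene NCL for 18S-Am1678 and 18S-Um1804. The ribosomal protein gene RPL13A holds the guide of 18S-Um1326 and a guide of 18S-Gm1328. SNORD98 of 18S-Gm867 lies in CCAR1, SNORD59A and SNORD59B of 18S-Am1031 in ATP5F1B, SNORD110 of 18S-Um1288 in NOP56, which encodes a core box C/D protein, SNORD61 of 18S-Um1442 in RBMX, and SNORD127 of 18S-Gm1447 in PRPF39. 11 of the 24 sites have another listed site within 6 nucleotides, so the flanks of one hold the read position of the other.

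Libraries held 5533150 to 18835537 end counts, and positions above 670 took 16.03% to 21.0% of them. The median end count per region position was 96 to 321.5 in the 4 KD libraries without a vector, which were the shallowest, against 356 to 887 in the other 15. Counting error alone gave a site's score a 95% half-width of 0.0253 at the median of the 456 pairs of site and library, and of 0.674 at most. PCR copies could not be told from separate molecules, so these widths cover counting error only. The second library of control KD with an empty vector had 20.8% of its ends at 1 position of 28S. It was also the 1 library where 18S-936 reached 0.390 and 18S-1441 reached 0.518, both sites being at 0.037 or less in the other 18.

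The 4 KD libraries without a vector also stood apart from the other 15 at single positions. Among 963 region positions with a flanking count of at least 20 in every library, the scores of these 4 did not overlap those of the other 15 at 169. These included 3 of 20 listed sites, 18S-1441, 18S-Gm1490 and 18S-Um799, with gaps of 0.0732, 0.0082 and 0.0019, and the gap was above 0.2 at 18 other positions. At 18S position 931, which is not a listed site, the score was 0.0140 and 0.0519 in FBL KD and -0.0834 and -0.113 in control KD without a vector. In the 15 other libraries it lay between 0.948 and 0.984. FBL KD and control KD without a vector stood on the same side, so FBL KD is compared below with its own control in each background, and the cause of this split was not tested.

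In control KD cells most of the sites were close to full protection. 15 of the 24 sites scored at least 0.9 in all 4 control KD libraries. 18S-Am1031 was highest in its lowest library, with 0.995, 0.998, 0.997 and 0.999. Next in that order came 18S-Gm683 at 0.995 to 1.00 and 18S-Am1383 at 0.991 to 0.997. 18S-Cm1272, the SNORD66 site, was intermediate at 0.682 to 0.823, and 18S-Gm1447 at 0.577 to 0.756. The 7 sites without an established guide were lower than all 17 others: 18S-1410 scored 0.233 to 0.505, 18S-1606 0.00 to 0.391, 18S-1680 0.0375 to 0.248 and 18S-1705 0.00 to 0.377. 18S-Um1668 was at 0 in all 19 libraries, with more ends at the site than in its flanks.

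**Figure D1:**
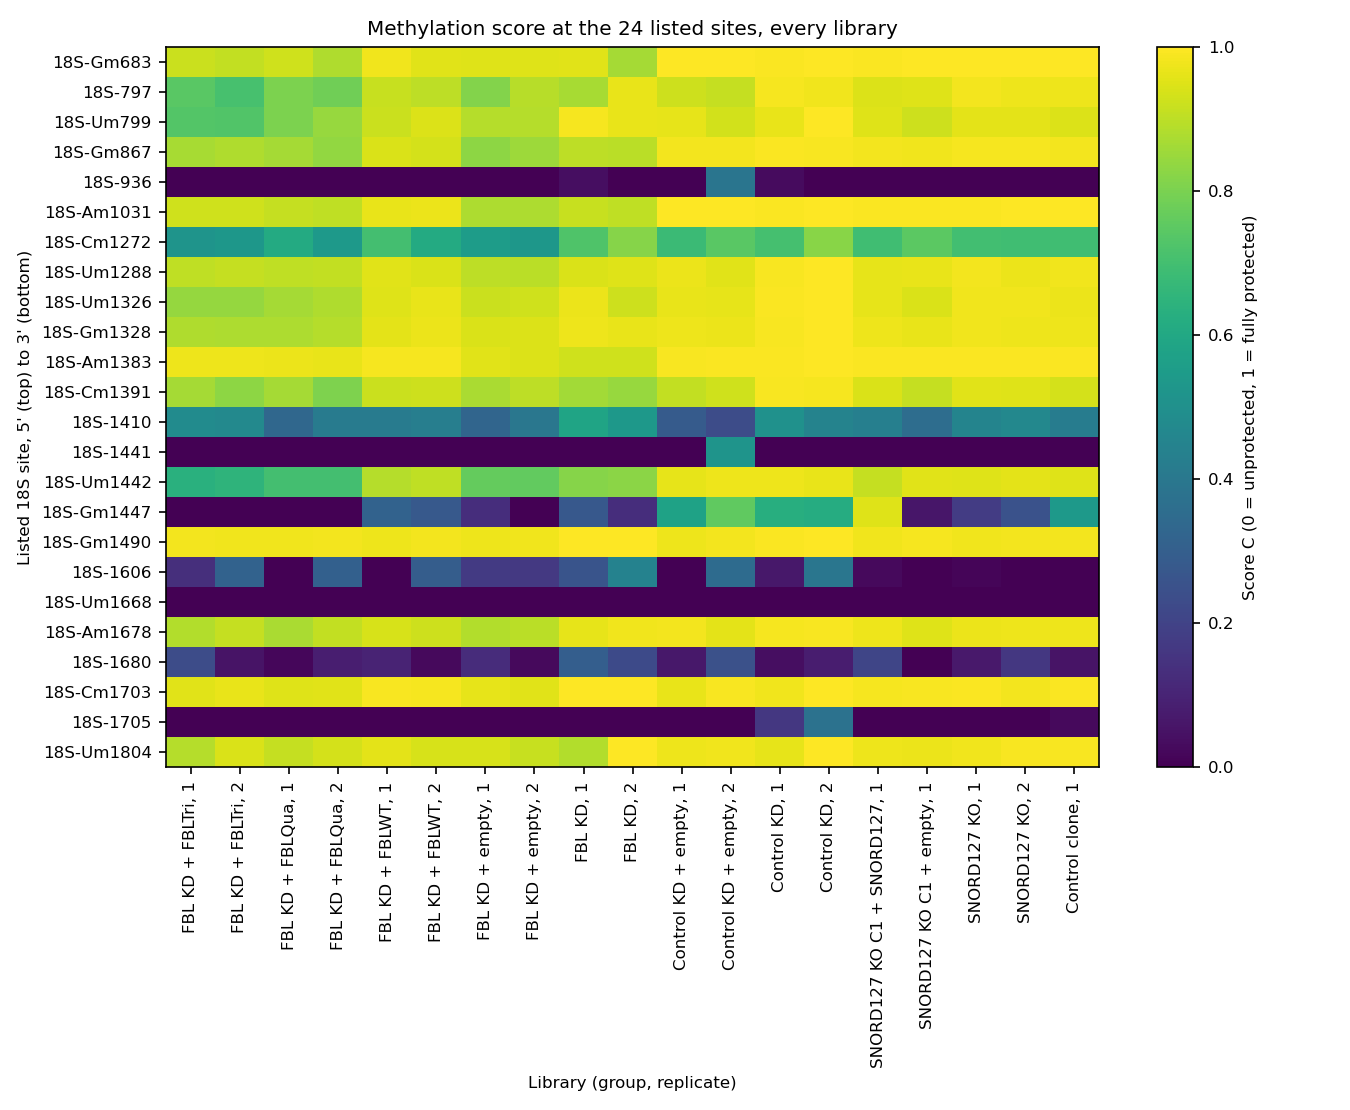
Score C of the 24 listed sites (from 5′ at the top to 3′ at the bottom) in each of the 19 libraries (columns, by group and replicate); the colour runs from 0 (dark) to 1 (bright). 18S-Um1668 is at 0 in every library, and 18S-Gm1447 is dark in the FBL KD libraries with a mutant and bright in clone C1 with SNORD127 (0.951).

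FBL knockdown lowered the methylation score at most sites of this region, but by little at most of them and by much at the neighbours 18S-Um1442 and 18S-Gm1447. Over both vector backgrounds 14 of the 24 sites fell and 1 rose at an adjusted p under 0.05 by limma, with adjustment over all 120 sites. Among all 120 sites 86 fell and 2 rose, so 71.7% fell, 1.67% rose and 73.3% were called in either direction. The median difference in score was -0.0541 in the region, against -0.0251 over the 23 listed sites of 18S up to position 670, of which 12 fell, and -0.153 over the 71 sites of 28S, of which 59 fell. By domain, 5 of 6 central sites fell, 8 of 15 sites of the 3′ major domain fell and 1 rose, and 1 of 3 sites of the 3′ minor domain fell. 13 of the 17 sites with a named guide fell, and of the 7 others 1 fell and 1 rose.

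The median score of all listed sites was itself 0.118 lower in FBL KD than in control KD libraries. When library medians were made equal, 2 sites of the region were lower, 18S-Um1442 and 18S-Gm1447, and 14 were higher; 11 of the 14 lowered sites changed sign. A decline at the other called sites therefore holds for the score itself and not relative to the other listed sites.

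18S-Um1442, guided by SNORD61, scored 0.817 and 0.828 in FBL KD and 0.764 and 0.760 in FBL KD with an empty vector. It scored 0.976 and 0.967 in control KD and 0.962 and 0.976 in control KD with an empty vector. All 4 FBL KD libraries lay below all 4 control KD libraries, and the difference was -0.178 (SE 0.0073, adjusted p = 5.23e-08 by limma).

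18S-Gm1447, guided by SNORD127, had the largest difference among the 24 sites. Its score was 0.275 and 0.129 in FBL KD and 0.133 and 0.0007 in FBL KD with an empty vector. It was 0.627 and 0.618 in control KD and 0.577 and 0.756 in control KD with an empty vector. The groups did not overlap, and the difference was -0.510 (SE 0.0471, adjusted p = 9.43e-06 by limma). In end counts, the FBL KD libraries had 574, 341, 1949 and 1859 ends at the site against flanking means of 791, 392, 2248 and 1860. The control KD libraries had 465, 228, 956 and 654 ends against 1246, 597, 2260 and 2684. The read position of 18S-Um1442 lies in these flanks; with it left out the difference at 18S-Gm1447 was -0.474.

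In the central domain the clearest losses were at 18S-Am1031 and 18S-Gm867. 18S-Am1031 scored 0.914 and 0.904 in FBL KD and 0.877 in both libraries of FBL KD with an empty vector. It scored 0.995 to 0.999 in the 4 control KD libraries, and the difference was -0.104 (SE 0.0033, adjusted p = 1.66e-08 by limma). The end counts behind these scores were 108, 90, 539 and 679 in the FBL KD libraries, against 6, 2, 14 and 21 in the control KD libraries, with flanking means of 833 to 15061.

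18S-Gm867 scored 0.8997 and 0.895 in FBL KD and 0.832 and 0.853 in FBL KD with an empty vector, against 0.994 and 0.991 in control KD and 0.981 and 0.982 in control KD with an empty vector. The difference was -0.118 (SE 0.0073, adjusted p = 6.28e-07 by limma). 18S-Gm683, the SNORD19 and SNORD19B site, scored 0.955, 0.866, 0.951 and 0.950 in FBL KD libraries, against 0.995, 1.00, 1.00 and 1.00 in control KD libraries. Its difference was -0.0685 (SE 0.0182, adjusted p = 0.00802 by limma). None of these 3 sites overlapped between the groups.

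The neighbours 18S-797 and 18S-Um799 fell by less. The difference was -0.0648 at 18S-797 (SE 0.0233) and -0.0339 at 18S-Um799 (SE 0.0125), the FBL KD and control KD libraries overlapped at both, and each call was lost when single libraries were left out. The remaining central site, 18S-936, for which no guide is known, was at 0 in 16 of 19 libraries and was not called. It scored 0.0369 and 0.00 in FBL KD and 0.00 in both libraries of FBL KD with an empty vector, against 0.0291 and 0.00 in control KD and 0.00 and 0.390 in control KD with an empty vector.

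In the head domain 2 of the 3 sites whose guides lie in SNHG1 fell, 18S-Am1383 and 18S-Cm1391, and 18S-Gm1490 did not pass the test. 18S-Am1383, guided by SNORD30, scored 0.927, 0.929, 0.955 and 0.947 in FBL KD libraries, against 0.994, 0.997, 0.991 and 0.992 in control KD libraries. The groups were apart, with a difference of -0.0539 (SE 0.0023, adjusted p = 5.65e-08 by limma). 18S-Cm1391, guided by SNORD28, scored 0.862, 0.845, 0.873 and 0.901 in FBL KD libraries, against 0.9897, 0.986, 0.908 and 0.928 in control KD libraries, with a difference of -0.0828 (SE 0.014). 18S-Gm1490, guided by SNORD25, was at 0.9746 to 0.998 over both groups, and its 95% interval of the difference ran from -0.0066 to 0.0055.

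Both sites with a guide in RPL13A fell slightly, with a difference of -0.0444 at 18S-Um1326 and of -0.0251 at 18S-Gm1328. 18S-Um1288, guided by SNORD110, fell by 0.0543 and its groups did not overlap. 18S-Am1678, guided by SNORD82 of NCL, fell by 0.0491. The FBL KD and control KD libraries overlapped at 18S-Um1326, 18S-Gm1328 and 18S-Am1678. With each background tested on its own, the decline at 18S-Am1678 was called only with an empty vector. 18S-Cm1272 was at 0.528 to 0.819 in FBL KD libraries and 0.682 to 0.823 in control KD libraries, and its difference of -0.0821 did not pass (adjusted p = 0.0681 by limma). In all, the FBL KD libraries lay entirely below the control KD libraries at 8 of the 24 sites, against 59.2% of all listed sites.

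In the 3′ minor domain, which holds the decoding helix, the 2 sites with a named guide did not pass the test. 18S-Cm1703, guided by SNORD43, scored 0.957 to 1.00 in FBL KD libraries and 0.968 to 1.00 in control KD libraries, and its 95% interval ran from -0.0192 to 0.0092. 18S-Um1804, guided by SNORD20, scored 0.886 to 1.00 and 0.964 to 1.00 in the same groups, with an interval from -0.0982 to 0.0101.

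The sites with predicted or unknown guides moved differently. 18S-1410 rose in FBL KD, to 0.582, 0.534, 0.325 and 0.396 against 0.505, 0.449, 0.288 and 0.233 in control KD libraries (difference 0.0905, SE 0.0273, adjusted p = 0.0146 by limma). The 2 libraries of FBL KD were above those of control KD in each background, but scores differed more between backgrounds than with the knockdown. The call was lost without the second control KD library, without the second FBL KD library with an empty vector and with flanks of 2 positions. Ends at its read position were not called (log2 -0.24, adjusted p = 0.674 by edgeR). 18S-1705 was at 0 in 16 of the 19 libraries. Its decline rests on the 2 control KD libraries without a vector, which had 89 and 15 ends against flanking means of 106 and 24.1, and it was lost when scores were not set to 0. 18S-1606 scored 0.259, 0.444, 0.169 and 0.167 in FBL KD libraries, against 0.0641, 0.391, 0.00 and 0.349 in control KD libraries, and 18S-1441 was at 0 in all of these but the second control KD library with an empty vector, at 0.518. Neither was called, and 18S-Um1668 had no difference, being at 0 throughout.

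**Figure D2:**
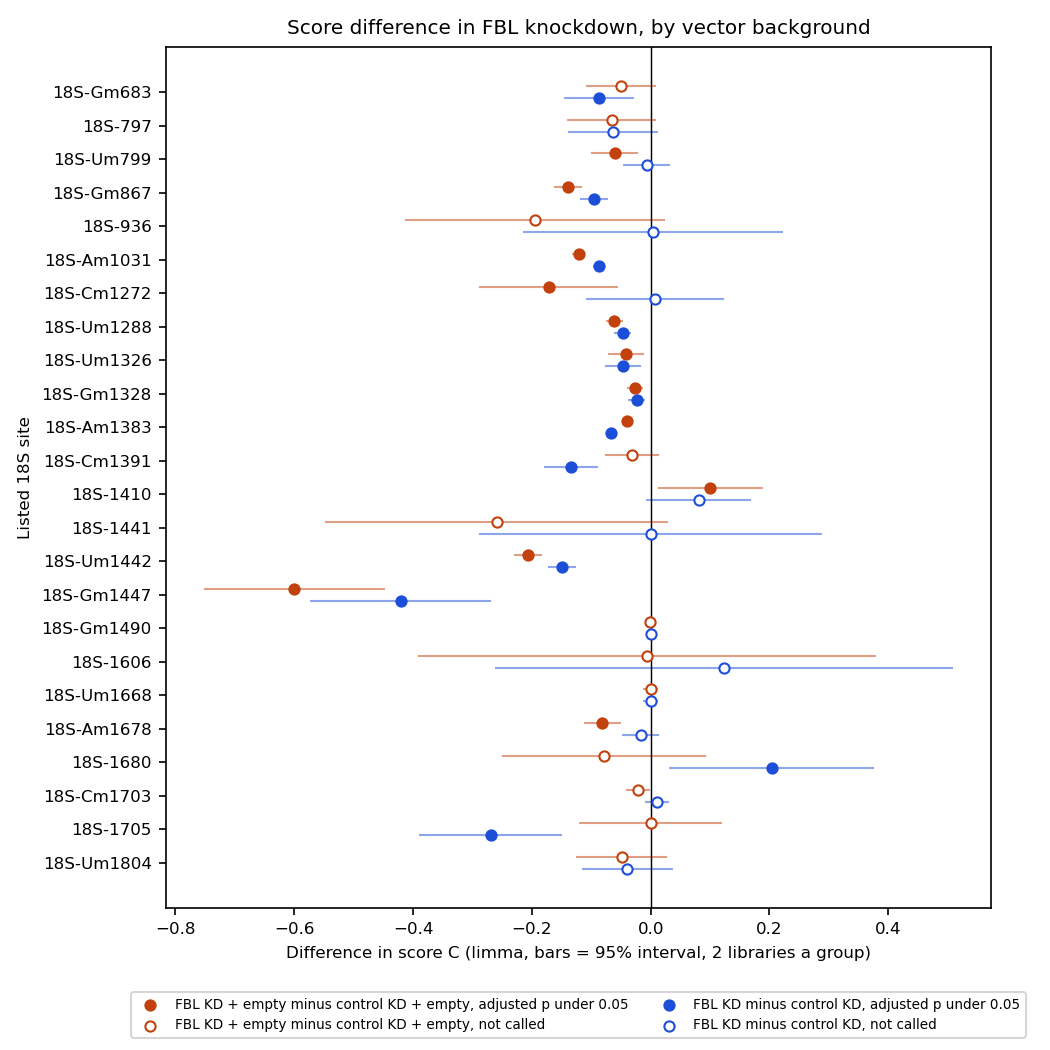
Difference in score C between FBL KD and control KD at each of the 24 listed sites, with an empty vector (upper point) and without a vector (lower point). Points are limma estimates over 2 libraries a group with their 95% intervals, and filled points passed an adjusted p under 0.05; 18S-Gm1447 lies farthest left, at -0.600 with an empty vector and -0.421 without one.

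Within each background on its own, FBL KD gave nearly the same number of calls. With an empty vector 11 sites were lower and 1 was higher, while 67.5% of all listed sites were lower, 0.833% higher and 68.3% either. Without a vector 11 were lower and 1 was higher, while 59.2% of all listed sites were lower, 1.67% higher and 60.8% either. With library medians made equal 2 were lower and 15 higher with an empty vector, and 3 lower and 11 higher without one. The decline was called in both backgrounds at 8 sites: 18S-Gm867, 18S-Am1031, 18S-Um1288, 18S-Um1326, 18S-Gm1328, 18S-Am1383, 18S-Um1442 and 18S-Gm1447. Calls shared by both backgrounds were not counted over all listed sites. 18S-Cm1272 was called with an empty vector, where it scored 0.553 and 0.528 in FBL KD and 0.682 and 0.742 in control KD cells. The 1 higher site without a vector was 18S-1680, at 0.299 and 0.225 in FBL KD and 0.0375 and 0.0789 in control KD libraries, on flanking counts of 37.4 to 250. With an empty vector it scored 0.129 and 0.0253 in FBL KD and 0.0629 and 0.248 in control KD libraries, and the call was lost when either library of either group without a vector was left out.

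The size of the knockdown effect differed between backgrounds at 6 sites by a test of the difference itself, 3 with a larger decline with the empty vector and 3 with a smaller one. Among all listed sites 30.0% differed, 25.0% with a larger and 5.0% with a smaller decline. With library medians made equal 0 sites had a larger decline and 4 a smaller one. The difference at 18S-Um1442 was -0.207 with an empty vector and -0.149 without one, and at 18S-Am1031 it was -0.121 and -0.087. 18S-Am1383 went the other way, with -0.0402 and -0.0676. 18S-Am1678 scored 0.884 and 0.895 in FBL KD and 0.981 and 0.961 in control KD cells with an empty vector, and 0.963 and 0.979 in FBL KD and 0.985 and 0.991 in control KD cells without one. The count was 3 without the second FBL KD library, without either FBL KD library with an empty vector or without the second control KD library. Column names carry shFBL4 for FBL KD with a vector and shFBL1 or shFBL2 for FBL KD without one, and the vector, whatever these names stand for and the depth cannot be told apart here.

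Control KD cells with and without an empty vector allowed the same look in the absence of FBL knockdown. 4 sites were lower with the vector, 18S-Um1288, 18S-1410, 18S-Gm1490 and 18S-1705, while 7.5% of all listed sites were lower, 0.833% higher and 8.33% either. 18S-1410 scored 0.288 and 0.233 with the vector and 0.505 and 0.449 without (difference -0.217, SE 0.0386, adjusted p = 0.0124 by limma). 18S-Um1288 scored 0.969 and 0.954 with it and 0.992 and 0.997 without. In a fit on these groups alone none of the 4 was called, and 2 were called without either control KD library without a vector and 0 without the second one with it.

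Putting wild-type FBL back into FBL KD cells raised 10 of the 24 sites above the empty vector and lowered none, while 57.5% of all listed sites rose, 0.833% fell and 58.3% were called either way. With library medians made equal 11 sites were lower and 1 was higher. 6 sites were called without the first empty-vector library and 5 without the second. All 10 have a named guide. 9 of them were among the 14 sites that fell in the knockdown; those 2 results share the FBL KD libraries with an empty vector. 18S-Um1442 scored 0.890 and 0.903 with wild-type FBL, against 0.764 and 0.760 with the empty vector, a difference of 0.134 (SE 0.0104, adjusted p = 7.53e-06 by limma). 18S-Gm867 scored 0.945 and 0.934 with wild-type FBL and 0.832 and 0.853 with the empty vector. 18S-Am1031 scored 0.966 and 0.971, against 0.877 in both libraries with the empty vector.

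18S-Gm1447 gained in the same comparison but stayed far from control cells. It scored 0.316 and 0.279 with wild-type FBL, against 0.133 and 0.0007 with the empty vector (difference 0.230, SE 0.0666, adjusted p = 0.0173 by limma). Against control KD cells with an empty vector, at 0.577 and 0.756, wild-type FBL cells differed by -0.369 (SE 0.0666, adjusted p = 0.00304 by limma). The gain was not called with library medians made equal, in a fit on the 2 groups alone, without the second empty-vector library or without the first wild-type FBL library.

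Wild-type FBL cells were compared with control KD cells at all sites in this way. 4 sites were still lower, 18S-Gm867, 18S-Am1031, 18S-Um1442 and 18S-Gm1447, and 18S-1410 was higher, while 29.2% of all listed sites were lower, 0.833% higher and 30.0% either. With library medians made equal 1 was lower and 6 were higher. 18S-1410 scored 0.417 and 0.427 with wild-type FBL and 0.288 and 0.233 in control KD cells with an empty vector. 3 sites were called without the second wild-type FBL library or without the second control KD library with an empty vector. At 18S-Am1383 wild-type FBL cells scored 0.986 and 0.988, against 0.991 and 0.992 in control KD cells with an empty vector, and the 95% interval of the difference ran from -0.0118 to 0.003.

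**Figure D3:**
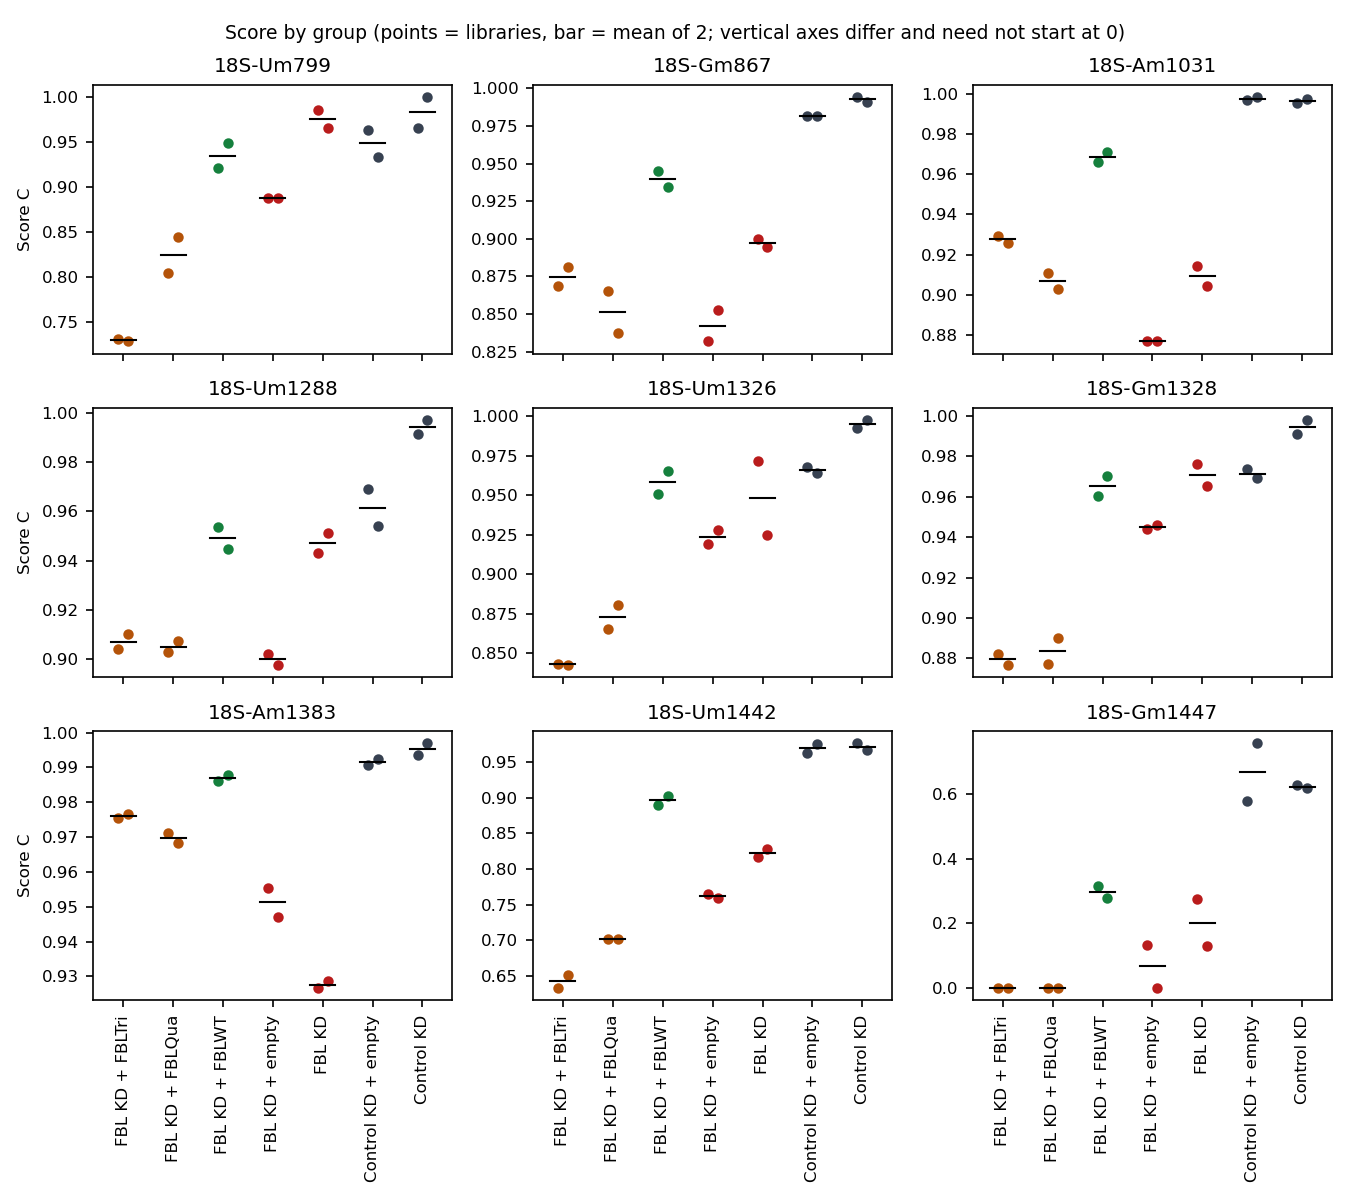
Score C at 9 sites in the 7 KD groups; each point is a library and each bar the mean of 2. The vertical axes differ between panels; both mutants lie at 0 at 18S-Gm1447, while at 18S-Am1031 and 18S-Am1383 they lie above FBL KD with an empty vector.

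Both mutant proteins gave lower scores than wild-type FBL, though with library medians made equal FBLTri had 9 sites higher and 4 lower. FBLQua then had 7 higher and 2 lower. FBLTri was lower at 13 sites and higher at none, while 62.5% of all listed sites were lower and 0.0% higher. FBLQua was lower at 13 sites and higher at none, while 59.2% of all listed sites were lower, 0.833% higher and 60.0% either. 12 sites were lower with both mutants, which was not counted over all listed sites. At 15 of the 24 all 4 mutant libraries lay below both wild-type FBL libraries, as they did at 90 of all 120 listed sites (75.0%). 18S-Um1442 scored 0.633 and 0.652 with FBLTri and 0.701 and 0.702 with FBLQua, against 0.890 and 0.903 with wild-type FBL. The differences were -0.254 for FBLTri (SE 0.0104, adjusted p = 1.98e-07 by limma) and -0.195 for FBLQua (SE 0.0104, adjusted p = 1.27e-06 by limma).

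18S-Um799, guided by SNORD105 and SNORD105B, scored 0.731 and 0.728 with FBLTri, against 0.920 and 0.948 with wild-type FBL (difference -0.205, SE 0.0176, adjusted p = 1.4e-05 by limma). Its neighbour 18S-797, assigned to SNORDZL107, scored 0.804 and 0.784 with FBLQua, against 0.917 and 0.902 with wild-type FBL (difference -0.115, SE 0.033, adjusted p = 0.0146 by limma). 18S-Gm1447 was at 0 in all 4 mutant libraries. Before negative scores were set to 0, it was at -0.158 and -0.141 with FBLTri and -0.0394 and -0.0515 with FBLQua.

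Set against the empty vector, the mutants lowered some sites and raised others. With FBLTri 5 sites were lower and 4 were higher, while 20.0% of all listed sites were lower, 16.7% higher and 36.7% either. With FBLQua 4 were lower and 2 were higher, while 11.7% of all listed sites were lower, 7.5% higher and 19.2% either. 18S-Um799, 18S-Um1326, 18S-Gm1328 and 18S-Um1442 were lower with both mutants, and 18S-797 with FBLTri. 18S-Am1031 and 18S-Am1383 were higher with both, and 18S-Gm867 and 18S-1410 with FBLTri. When library medians were equal, FBLTri had 1 site higher and 5 lower, and FBLQua had 1 higher and 4 lower. The calls at 18S-Gm867 and 18S-1410 were lost without the first empty-vector library or either FBLTri library, which left 2 higher sites, and the call at 18S-797 without the second library of either group. Those of FBLQua at 18S-Um799 and 18S-Um1326 were lost without either empty-vector library, which left 2 lower sites, and without the first FBLQua library.

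18S-Um799 scored 0.731 and 0.728 with FBLTri and 0.804 and 0.844 with FBLQua, against 0.887 and 0.888 with the empty vector. The difference was -0.158 for FBLTri (SE 0.0176, adjusted p = 0.000151 by limma) and -0.063 for FBLQua (SE 0.0176, adjusted p = 0.0365 by limma). 18S-Gm1328, whose guides are SNORD32A and SNORD32B, scored 0.882 and 0.877 with FBLTri and 0.877 and 0.890 with FBLQua, against 0.944 and 0.946 with the empty vector. Its differences were -0.0656 and -0.0614, both with an SE of 0.0062. 18S-Um1442 differed by -0.120 with FBLTri and by -0.0604 with FBLQua. 18S-797 scored 0.746 and 0.709 with FBLTri, against 0.813 and 0.891 with the empty vector.

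In the other direction, 18S-Am1031 scored 0.929 and 0.926 with FBLTri and 0.911 and 0.903 with FBLQua, against 0.877 in both libraries with the empty vector. The differences were 0.0508 for FBLTri (adjusted p = 4.77e-05 by limma) and 0.03 for FBLQua (adjusted p = 0.00216 by limma). 18S-1410 scored 0.484 and 0.470 with FBLTri and 0.332 and 0.415 with FBLQua, against 0.325 and 0.396 with the empty vector. 18S-Am1383 scored 0.9755 and 0.9765 with FBLTri and 0.971 and 0.968 with FBLQua, against 0.955 and 0.947 with the empty vector. All 4 mutant libraries lay above both empty-vector libraries at 3 sites, 18S-Am1031, 18S-Um1288 and 18S-Am1383, and below them at 8, against 22.5% and 25.8% of all listed sites.

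Among the called sites the direction split by how close the sites lie to each other. All 5 sites that FBLTri lowered, and all 4 that FBLQua lowered, have another listed site within 6 nucleotides. These counts are not of independent sites: 18S-797 and 18S-Um799 are neighbours of each other, as are 18S-Um1326 and 18S-Gm1328. None of the 4 sites that FBLTri raised and neither site that FBLQua raised has one, against 11 of the 24 sites of the region. Leaving the read positions of other listed sites out of the flanks kept all of these signs, with 18S-Um799 at -0.144 and 18S-Um1442 at -0.125 for FBLTri. This split was seen after the values were known, was not counted over all listed sites and was not tested. Of the 11 sites with such a neighbour 6 were not called for FBLTri and 7 for FBLQua. 18S-Gm683 and 18S-Cm1391 have no such neighbour, yet all 4 mutant libraries lay below both empty-vector libraries there, without a call. When scores were not set to 0, 18S-Gm1447 was lower with FBLTri than with the empty vector as well (difference -0.216, adjusted p = 0.0424 by limma). In a fit on the compared groups alone no site of the region was called for FBLQua.

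**Figure D4:**
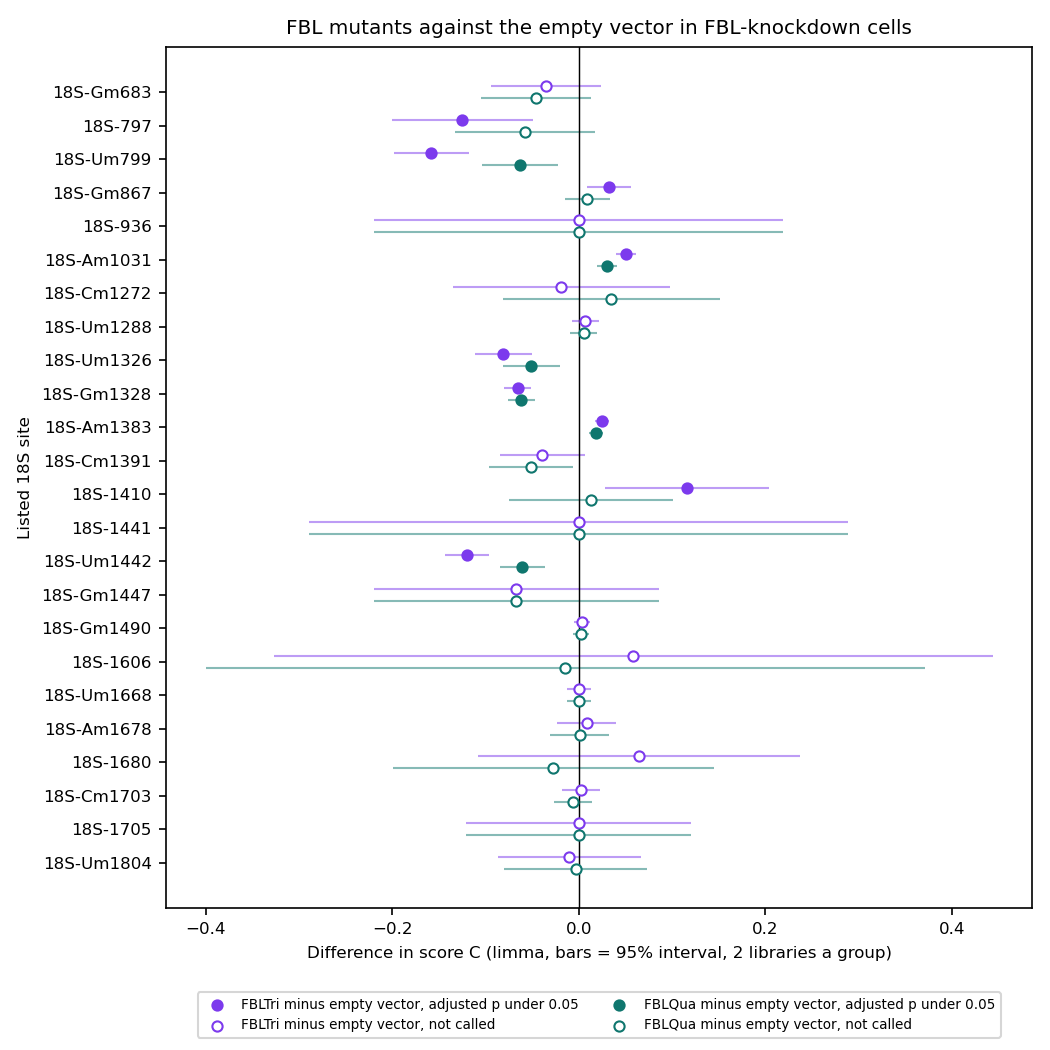
Difference in score C of FBLTri (upper point) and FBLQua (lower point) from the empty vector in FBL KD cells at the 24 listed sites, with 95% intervals from limma over 2 libraries a group; filled points passed an adjusted p under 0.05. 18S-Um799 lies at -0.158 and 18S-Um1442 at -0.120 for FBLTri, and 18S-Am1031 at 0.0508.

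In the SNORD127 series 18S-Gm1447, the target of SNORD127, was lower in both KO clones than in the control clone and highest with SNORD127 put back. It scored 0.178 in KO clone C1 and 0.254 in KO clone C34, against 0.543 in the control clone. With SNORD127 put back into clone C1 it scored 0.951, against 0.0611 with the empty vector, from 108 and 2109 ends at the site over flanking means of 2218 and 2246. These groups have 1 library each and no replicate check; counting error gave half-widths of 0.0092 and 0.0417. The difference of the KO clones from the control clone was -0.327 (SE 0.0802, 95% interval -0.507 to -0.147) and did not pass adjustment over 120 sites (adjusted p = 0.301 by limma).

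No site of the region was called in that comparison by limma, as was none of all 120 sites (0.0%), and 18S-Gm1447 was the 1 region site, of 3 among all 120, with an unadjusted p under 0.05. Its neighbour 18S-Um1442 scored 0.953 and 0.960 in the KO clones and 0.950 in the control clone, and 0.913 with SNORD127 put back against 0.953 with the empty vector.

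Counts at every position, not only at listed sites, showed where FBL knockdown changed the fragment ends of the region. edgeR's quasi-likelihood test over 6538 rRNA positions called 10 of 1161 tested region positions, all with more ends in FBL KD, while 1.06% of all tested positions had more. All 10 were read positions of listed sites, 1 nucleotide after them. They included 18S-Cm1272 (1.75-fold, adjusted p = 0.0447 by edgeR), which limma did not call over both backgrounds. Sites that fell by limma without a call here were 18S-797, 18S-Um799, 18S-Gm1328, 18S-Am1678 and 18S-1705 (adjusted p = 0.141 to 0.82 by edgeR). At 18S-1705 ends were fewer in FBL KD (0.857-fold). Of the 23 read positions tested 10 were called and of the 1138 others 0. Outside the region 58 of 95 read positions and 1 of 5282 others were called. Of the 1138 other region positions 104 had an unadjusted p under 0.05. DESeq2 called 1 of 1142, position 1522, with fewer ends (log2 -1.03, adjusted p = 0.0325 by DESeq2). At 18S-Gm683 the FBL KD libraries had 4, 5, 15 and 17 ends and the control KD libraries 1, 0, 0 and 0, too few for a fold (adjusted p = 0.00461 by edgeR). At 18S-Am1031 ends were 37.3-fold higher (log2 5.22, SE 0.33, adjusted p = 2.22e-06 by edgeR). 18S-Gm867 followed at 15.0-fold, 18S-Am1383 at 7.10-fold and 18S-Um1442 at 6.75-fold.

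At 18S-Gm1447 the fold was 2.19 (log2 1.13, SE 0.16, adjusted p = 0.00183 by edgeR). 18S-Gm1447 had the largest score difference of the 24 sites, with a smaller fold in ends than 18S-Am1031, 18S-Gm867, 18S-Am1383 and 18S-Um1442. 95% of the other region positions had a log2 fold change between -0.81 and 0.72. These calls depended on the control libraries. Without the second control KD library 174 region positions were higher and 31 lower, and without the first control KD library with an empty vector 21 were higher and 45 lower. Leaving out any other library gave 7 to 10 calls.

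The same score was then computed at every region position and tested with limma at 3472 rRNA positions, of which 1.81% were lower in FBL KD. 6 of 797 tested region positions were lower and none was higher. All 6 are listed sites: 18S-Gm867, 18S-Am1031, 18S-Um1288, 18S-Am1383, 18S-Um1442 and 18S-Gm1447. Only 13 of the 24 listed sites had the flanking counts to enter this test. 52 unlisted region positions scored at least 0.75 in all 5 libraries of the SNORD127 series, and 32 of them lay in 13 runs of neighbouring positions. Without the first FBL KD library 12 region positions were called, without the second control KD library 45, and without the first control KD library with an empty vector 255. None of the 52 was called for FBL KD by limma, with 6 at an unadjusted p under 0.05, and edgeR called 0 of their read positions. Their median difference, in scores not set to 0, was -0.0036, over a range from -0.0738 to 0.0654. The 24 listed sites had a median of -0.0541 in the deposited score, without this selection on score and flanking count.

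The unlisted position with the highest lowest score was 1164. It scored 0.754, 0.801, 0.993 and 0.996 in FBL KD libraries, against 0.591, 0.737, 0.9906 and 0.9906 in control KD libraries, and like position 931 it was lower in the 4 libraries without a vector. Its neighbour 1163 scored 0.849, 0.894, 0.978 and 0.985 in FBL KD libraries, against 0.752, 0.867, 0.985 and 0.982 in control KD libraries. Position 994 scored 0.997, 0.989, 0.981 and 0.985 in FBL KD libraries, against 0.992, 0.991, 0.980 and 0.977 in control KD libraries. Both positions overlapped between FBL KD and control KD, as did 1539 and 1794. Position 1539 scored 0.9875, 0.989, 0.9749 and 0.982 in FBL KD libraries, against 0.9901, 0.99, 0.974 and 0.980 in control KD libraries. The flanks of 1539 hold position 1534, the most counted region position in many libraries, such as the control clone (4.47% of region ends). The score is relative to such flanks, and whether 1539 is methylated was not tested. Position 1794 scored 0.982, 0.978, 0.946 and 0.956 in FBL KD libraries, against 0.968, 0.976, 0.945 and 0.959 in control KD libraries. The differences at 994, 1539 and 1794 were 0.0032 (SE 0.0057), -0.0002 (SE 0.006) and 0.0037 (SE 0.0087). 18S-Am1031, with a similar level in control KD cells, fell by 0.104. Calls among the 52 also depended on single libraries: there were 7 without the first control KD library with an empty vector, 3 without the second control KD library and 1 without the first FBL KD library.

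**Figure D5:**
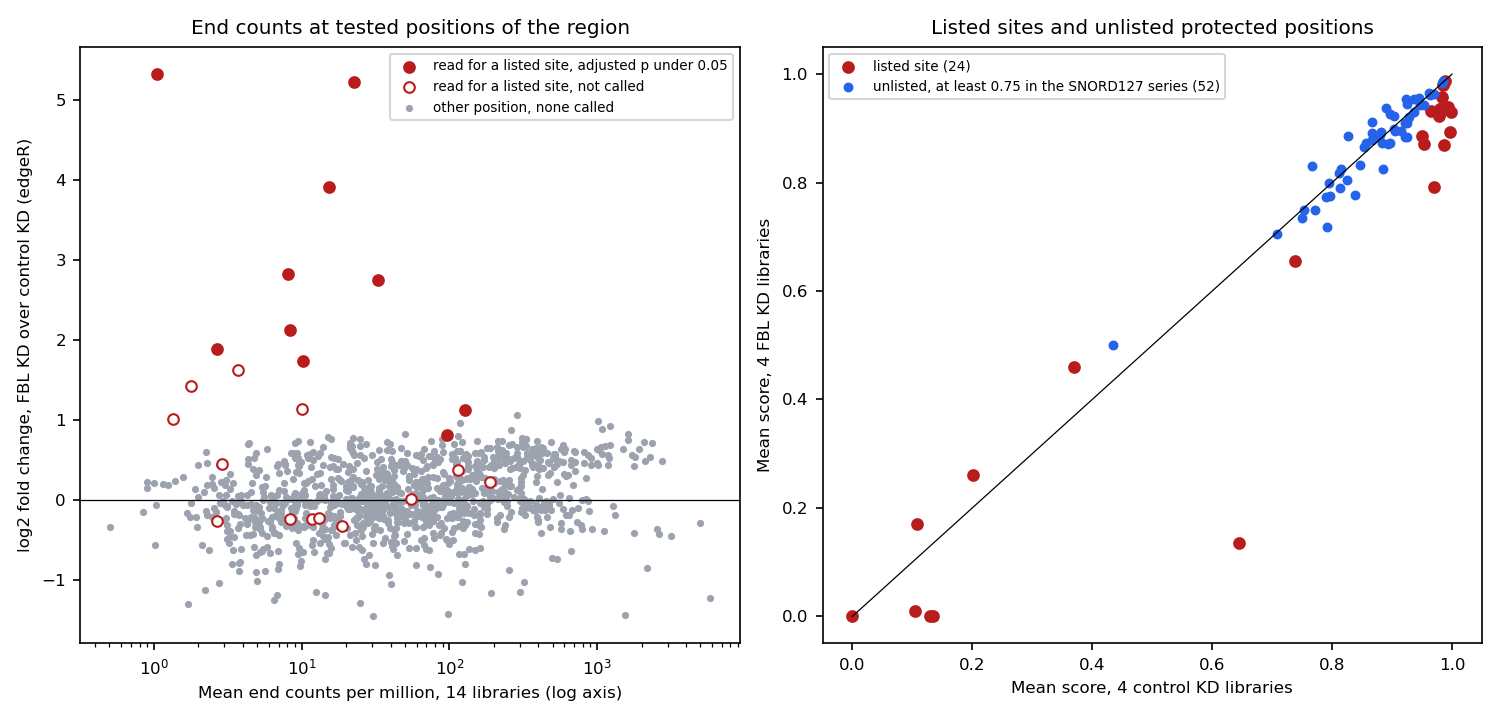
Left, log2 fold change of end counts in FBL KD over control KD (edgeR) against mean CPM (end counts scaled to library size) over 14 KD libraries (log axis) for 1161 region positions; the 10 filled points are the called ones, all read for a listed site. Right, mean score in the 4 FBL KD libraries against that in the 4 control KD libraries at 24 listed sites and 52 unlisted positions. The unlisted positions were chosen on scores of at least 0.75 in the SNORD127 series. They lie along the line of equal scores, and most listed sites lie below it.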

How the data were processed

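RiboMethSeq libraries of 19 Kasumi-1 samples were analysed. Per the labels' protocols, alkaline hydrolysis of 100 ng of total RNA ran for 12 min at 95 °C and gave pieces of roughly 30 nucleotides. Tools named in the submitters' processing notes are cutadapt and Bowtie2, with versions, reference and settings not stated there. The authors deposited end counts for 7000 rRNA positions, whole numbers without normalization, and score C as a fraction for 120 sites. The formula in the text, with weights falling from 1 to 0.5 and the count read 1 position after the site, gave the deposited score in 2280 of 2280 cases within 1e-09. No source used here states which fragment ends were counted.

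The members, lists and tests were chosen with earlier results of these data known. Groups come from the sample titles; base letters in site names and domains are background knowledge, and guides come from the deposited annotation. Scores were tested with limma 3.58.1 (R 4.3.3, variance trend, two-sided, Benjamini-Hochberg over 120 sites, 0.05), on the 14 KD libraries, whose groups share 1 estimate of the spread, or all 19 for the KO comparison. End counts were tested with edgeR 4.0.16 (quasi-likelihood, low-count filter) and DESeq2 1.42.0 as the alternative. Scores at all positions, not set to 0, were tested with limma where each of all 19 libraries had a flanking mean of at least 50. Scripts were tested on simulated data. Replicate pairs differed by a chi-square of 24.9 to 651 per region position, so none agreed within sampling noise.

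Values in each library of the comparison concerned are given for the 8 called sites with the largest knockdown differences. The same holds for the 3 largest in each other comparison, 18S-Gm1447 with its neighbours and sites without an established guide. It also holds for the 6 unlisted positions with the highest lowest score in the SNORD127 series. Others were added after their values were seen. Alternatives were a logit scale, scores not set to 0, no variance trend, the compared groups alone, other flanks, a flanking count of at least 50, equal library medians, a replicate block, and each replicate left out, where a lone library is assumed to vary like the other groups. For counts they were other size factors, DESeq2, no filter and library size over 18S. rRNA sequences were not used here. Python 3.11.15, pandas 2.3.3, numpy 2.4.6 and matplotlib 3.10.9 were used for tables and plots.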

Additional observations from a re-analysis of the deposited data

Results flagged for a closer look

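At 6 of the 24 sites the effect of FBL knockdown differed between the empty-vector background and the background without re-expression, by limma's test of the difference itself. The difference of the 2 effects, empty vector minus no vector, was -0.0339 at 18S-Am1031, -0.0578 at 18S-Um1442 and -0.0645 at 18S-Am1678, where the decline was larger with the vector. It was 0.0274 at 18S-Am1383, 0.103 at 18S-Cm1391 and 0.269 at 18S-1705, where it was smaller. 18S-Am1383 was called under every alternative tried, and 18S-Am1031 under all but the logit scale and equal library medians. The value at 18S-1705 comes from the 2 control KD libraries without a vector, the only KD libraries where its score was above 0. At 18S-Cm1391 FBL KD was 0.862 and 0.845 without a vector and 0.873 and 0.901 with it, while control KD was 0.9897 and 0.986 without a vector and 0.908 and 0.928 with it. The libraries without a vector also stood apart at 169 region positions, and the part of this in the 6 differences was not tested.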

How the results depend on the processing

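Counts of called sites are out of 24 and cover both directions. With library medians made equal, calls split into 2 lower and 14 higher over both backgrounds, 3 and 11 without a vector, 2 and 15 with an empty vector, 0 and 4 for the difference between backgrounds, 11 and 1 for wild-type FBL against the empty vector, 1 and 6 against control KD, 4 and 9 for FBLTri and 2 and 7 for FBLQua against wild-type FBL, and 5 and 1 and 4 and 1 for them against the empty vector. The knockdown difference over both backgrounds then became 0.0496 at 18S-Gm683, 0.0006 at 18S-Gm867, 0.0142 at 18S-Am1031 and 0.0353 at 18S-Cm1391, and it also changed sign at 18S-797, 18S-Um799, 18S-Um1288, 18S-Um1326, 18S-Gm1328, 18S-Am1383 and 18S-Am1678. Called sites changed sign under it in the other comparisons too, except those of the mutants against the empty vector. A flanking count of at least 50 left 13 sites, of which 8 were called for the knockdown and 8 for FBLQua against wild-type FBL. The logit scale gave 3 for the difference between backgrounds, 9 for the empty vector in control KD, 3 for FBLTri and 2 for FBLQua against the empty vector. Fits on the compared groups alone gave 0 for the empty vector in control KD, 0 for FBLQua against the empty vector and 1 for the SNORD127 KO, which was 18S-1705, at 0 in both KO clones. For the empty vector in control KD, flanks of 2 positions gave 1 and equal medians 2. Setting negative scores to 0 gave 11 called region positions for the score at all positions.

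Leaving out 1 replicate at a time gave 3 to 8 calls for the difference between backgrounds, 0 to 5 for the empty vector in control KD, with 0 without its second empty-vector library, 5 to 7 for wild-type FBL against the empty vector, where leaving out either empty-vector library gave 6 and 5, 3 to 6 for wild-type FBL against control KD, 6 to 8 for FBLTri and 4 to 6 for FBLQua against the empty vector. It gave 12 to 16 for the knockdown over both backgrounds, 7 to 205 for position counts, 6 to 255 for the score at all positions and 0 to 7 among the unlisted positions. The 255 came without the first control KD library with an empty vector; 12 came without the first FBL KD library and 45 without the second control KD library. Replicate numbers were not used as pairs in the main fits. Deviations of same-numbered libraries correlated at -0.226 to 0.694 over 21 pairs of groups, with a median of 0.159 and 12 above 0.1. With a replicate block 15 sites were called for the knockdown, 11 and 12 in the 2 backgrounds without and with a vector, 9 for wild-type FBL and 7 and 5 for FBLTri and FBLQua against the empty vector. The causes of these changes were not tested. Scores near 1 rest on few ends, and 2 libraries a group limit the precision.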
